A study of Rattus norvegicus with 6 samples.

Results

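Genes of the Notch pathway were followed in RASMCs, the primary smooth muscle cells of the rat aorta: the receptors Notch1, Notch2 and Notch3, the ligands Jag1 and Jag2, the DNA-binding factor Rbpj, and the target repressors Hes1, Hey1, Hey2 and Heyl. They were chosen by symbol, and all 10 were found among the 22574 symbols of the count table. The cells came from male Sprague-Dawley rats and carried no engineered allele. In 3 libraries they had been stimulated with CitH3+dsDNA, citrullinated histone H3 given together with double-stranded DNA, which are components of extracellular traps. In the other 3 libraries the cells received bovine serum albumin as a control. The time of stimulation before RNA extraction is not given in the sources used here. According to the study's reporting summary, cultured cells of the same rat were split into wells for in vitro replicates. It says so of in vitro work in general, and the rats behind these libraries are not given. The p-values here may thus measure only the spread between wells and libraries, and cannot be taken to measure that between animals.

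Notch is a receptor that is also its own messenger. A Jagged or Delta ligand on one cell binds a Notch receptor on its neighbour, an ADAM protease and then gamma-secretase cut the receptor, and the freed intracellular domain enters the nucleus. There it joins Rbpj and a Mastermind coactivator, and genes of the Hes and Hey families of transcriptional repressors are switched on. In the artery wall Notch3 is the receptor best known from smooth muscle, Jag1 is its main ligand, and the pathway takes part in setting the contractile state. The cleavage step acts on protein, and RNA counts do not measure it.

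Hes1 and Hey2 are shown first, because they are the readout genes whose promoter windows hold 2 copies of the Rbpj core motif. The sequences are RefSeq promoter windows on rat build GRCr8, and a window was found for 9 of the 10 genes, all but Hey1. Each window ran from 250 bases before to 50 bases after the annotated start. The motif searched was TGGGAA on both strands, and capitals mark it below. The Hes1 stretch covers chr11:84213106-84213205 on the minus strand, from 160 to 61 bases before the start. The Hey2 stretch covers chr1:28640990-28641089 on the plus strand, from 110 to 11 bases before the start.
Hes1: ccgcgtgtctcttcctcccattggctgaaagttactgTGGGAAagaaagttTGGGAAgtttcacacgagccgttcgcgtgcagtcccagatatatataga
Hey2: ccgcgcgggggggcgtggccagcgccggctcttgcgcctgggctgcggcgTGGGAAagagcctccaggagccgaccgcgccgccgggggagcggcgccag
In Hes1 the matches began 123 and 109 bases before the start, on the same strand. In Hey2 the match shown began 60 bases before the start, and the other lay upstream of the stretch on the opposite strand. The motif was present in 25.7% of all 33469 windows and present at least 2 times in 3.85% of them. The longer motif GTGGGAA, which contains TGGGAA, occurred once in Hes1 and once in Hey2, and in 6.29% of all windows. No match to TGGGAA was present in the windows of Notch1, Notch2, Jag1, Jag2 or Heyl. Notch3 held 1 match, 42 bases after the start. The windows of Rbpj overlap: 1 also held it 2 times and the other held it 1 time, at a site that lies in both. A match describes letters in a window and not binding.

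Library totals lay between 17573905 and 18742395 counts. All 8 smooth muscle markers were tested, and 5 were called at an adjusted p under 0.05 in edgeR, against 2.20% of all tested genes. The 3 not called were Myh11, Lmod1 and Des, with log2 fold changes of 0.061, -0.060 and -0.062. Cnn1, the gene of calponin, fell from 417 ± 69.2 to 140 ± 5.16 CPM (SD, n = 3), and Acta2, Tagln and Smtn were also lower, by 0.69, 0.40 and 0.21 on the log2 scale. Myocd, the coactivator of the contractile programme, rose from 18.1 ± 0.368 to 38.5 ± 4.14 CPM (SD, n = 3). CPM are counts scaled by library size after TMM, so that libraries of different depth can be compared. The endothelial markers Kdr, Emcn and Cldn5 had at most 1 count in any library, as did the leukocyte markers Ptprc and Itgam. Other endothelial markers were counted: Cdh5, the gene of VE-cadherin, had 73 to 105 counts in a library, Tie1 38 to 61 and Pecam1 9 to 18. The summed level of all 8 endothelial markers was 8.44 to 8.91 CPM after CitH3+dsDNA and 9.81 to 10.6 CPM in controls, so the groups did not overlap. That of the 8 macrophage markers, most of it Cd14 and Csf1r, was 72.7 to 75.0 against 73.5 to 76.6 CPM. Of the 5 macrophage markers tested, 2 had log2 fold changes above and 3 below 0. Aif1, which had too few counts to be tested, had 8, 9 and 9 counts after CitH3+dsDNA and 2, 2 and 3 in controls. For fibroblasts 7 of 8 marker symbols were in the table, with nearly all of their summed level from Mfap5 and Serpinf1. It was 1244 to 1295 against 1296 to 1368 CPM, so these groups did not overlap either, though their nearest libraries were almost equal. Taken singly, 19.1% of all tested genes had groups that did not overlap. All 4 fibroblast markers tested had log2 fold changes below 0. Among those not tested, Dpt had a lower mean and Dcn and Pdgfra leaned the other way. Dcn had 9, 2 and 4 counts after CitH3+dsDNA and 0, 0 and 5 in controls. Pdgfra had 14, 11 and 8 against 9, 5 and 6. None of the other-cell markers with enough counts to be tested was called, and their part in the results below was not tested. In bulk RNA, fewer cells of a type and less RNA per cell cannot be told apart.

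None of the Notch genes was called different between CitH3+dsDNA and control cells. Of the 10 genes, 8 passed the filter on low counts and were tested, and 0 of the 8 had an adjusted p under 0.05 in edgeR's quasi-likelihood test, where 2.20% of all 12591 tested genes did. Without adjustment 1 of the 8, Rbpj, had a p under 0.05, against 13.9% of all tested genes. DESeq2 and limma-voom also called 0. Of the 8 log2 fold changes 4 were above and 4 below zero, with a median of 0.017 and a range from -0.10 to 0.18. Over all tested genes the median was -0.0013. The median absolute log2 fold change was 0.065 over these genes and 0.076 over all tested genes.

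**Figure D1:**
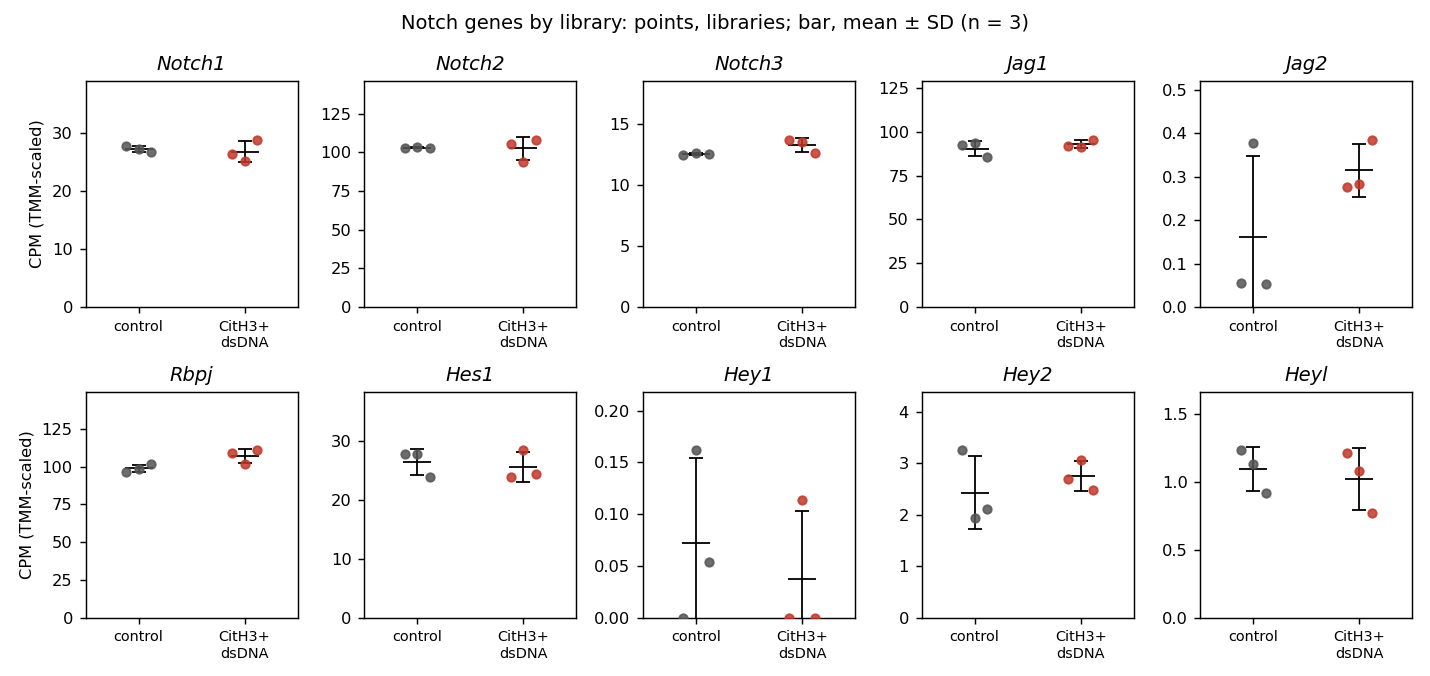
Level of each of the 10 Notch genes in every library, in TMM-scaled CPM on linear axes from 0 with a scale of its own for each gene. Points are the 3 control and 3 CitH3+dsDNA libraries, and bars give the mean ± SD, cut off at 0. Only in Rbpj do the groups not overlap, by 101.6 against 101.5 CPM at their nearest libraries.

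The receptor levels of the groups overlapped. Notch1, which is shared by smooth muscle and endothelium, was at 26.4, 25.3 and 28.9 CPM after CitH3+dsDNA and at 27.7, 27.4 and 26.8 CPM in controls. The stimulated libraries lay on both sides of the controls. The estimated change was -1.63%, with a 95% interval from -11.2% to 8.92% (adjusted p = 0.916 from edgeR).

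Notch2, the other broadly expressed receptor of the vessel wall, was at 105, 94.0 and 108 CPM after CitH3+dsDNA and at 103, 103 and 103 CPM in controls. The controls were almost equal, and CitH3+dsDNA replicate 2 was the lowest of all libraries. The change was -0.375%, with an interval from -7.79% to 7.63% (adjusted p = 0.979 from edgeR). This was the smallest change among the tested Notch genes. Its sign depended on 1 library and on the scaling: without CitH3+dsDNA replicate 2 the log2 fold change was 0.052, and with library size alone 0.014, neither called.

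Notch3 encodes the receptor whose mutations cause the small-vessel disease CADASIL, a disorder of arterial smooth muscle. It was at 13.7, 13.5 and 12.6 CPM after CitH3+dsDNA and at 12.5, 12.7 and 12.6 CPM in controls. Replicates 1 and 2 of the stimulated group lay above every control, and replicate 3 lay between controls. The change was 5.66%, with an interval from -6.55% to 19.5% (adjusted p = 0.718 from edgeR). With 223 to 249 counts in a library, Notch3 was known less closely than Notch2, with 1656 to 1966 counts.

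The reads of the 3 receptors were also compared as shares of their sum within a library, a measure chosen after the counts had been seen. It does not depend on the scaling of libraries. Notch3 took 9.34 ± 0.882% (SD, n = 3) after CitH3+dsDNA and 8.80 ± 0.0620% (SD, n = 3) in controls. The shares of Notch1 were 18.8 ± 0.605% and 19.1 ± 0.242%, and those of Notch2 71.8 ± 0.899% and 72.1 ± 0.185%, in the same order. The small control SDs do not measure precision: in CPM each receptor's control SD lay below counting error, for Notch3 0.0860 against 0.828. Spread below counting error occurred in 4 of the 8 tested Notch genes in each group. It occurred in 37.9% of all tested genes after CitH3+dsDNA and 37.7% in controls. Each group pair overlapped, and exact permutation tests, two-sided, gave p = 0.4 for Notch3, 0.6 for Notch1 and 1 for Notch2. With 3 libraries a group such a test cannot go below 0.1. Adjusted over these 3 comparisons by Benjamini-Hochberg, the values were 0.9, 0.9 and 1.

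Both Jagged ligands were examined, at very different depth. Jag1, the ligand that vascular smooth muscle shows to its neighbours, was at 91.8, 91.6 and 95.6 CPM after CitH3+dsDNA and at 92.4, 93.4 and 85.7 CPM in controls. The ranges overlapped, with control replicate 3 lowest of all and CitH3+dsDNA replicate 3 highest. The change was 2.79%, with an interval from -3.98% to 10.02% (adjusted p = 0.751 from edgeR). Its log2 fold change, 0.040, ran from 0.0017 to 0.063 with one library omitted at a time, lowest without control replicate 3. Jag1 had 1591 to 1736 counts in a library and the smallest biological coefficient of variation of the tested Notch genes, 3.94%.

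Jag2, a Jagged ligand better known from epithelium, had 5, 5 and 7 counts after CitH3+dsDNA and 1, 7 and 1 counts in controls. It did not pass the filter. Control replicate 2 equalled the highest stimulated library. The summed counts were 17 and 9, a ratio of 1.93 with an interval from 0.812 to 4.90 that covers counting error only, so no change was detectable at this depth.

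Rbpj was the Notch gene with the smallest p. It encodes the factor that brings the Notch intracellular domain to DNA and that, without it, gathers corepressors at the same sites. Its levels were 109, 101.6 and 111 CPM after CitH3+dsDNA and 96.6, 98.5 and 101.5 CPM in controls. The groups did not overlap, but CitH3+dsDNA replicate 2 and control replicate 3 were nearly equal. Groups failed to overlap in 1 of the 8 tested Notch genes and in 19.1% of all tested genes. The change was 8.30%, with an interval from 1.27% to 15.8% before any adjustment for the number of genes. Rbpj had an unadjusted p of 0.0235 from edgeR and was not called (adjusted p = 0.265 from edgeR). Over the 15 alternative settings its log2 fold change stayed between 0.089 and 0.15, and its adjusted p between 0.134 and 0.576.

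**Figure D2:**
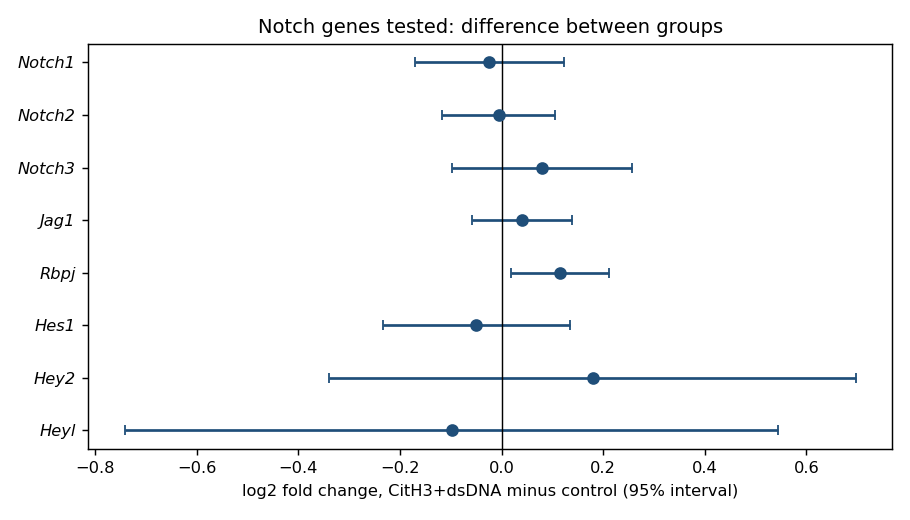
Log2 fold change, CitH3+dsDNA minus control, of the 8 tested Notch genes, with points for the edgeR estimate and bars for its 95% interval, not adjusted for the number of genes. The intervals of Notch1, Notch2, Notch3, Jag1, Rbpj and Hes1 lie within -0.23 and 0.26, those of Hey2 and Heyl reach from -0.74 to 0.70, and that of Rbpj alone lies above 0.

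The target repressors are the usual transcript readout of the pathway. Hes1, a repressor of the basic helix-loop-helix type that many cells switch on within a short time of Notch cleavage, was at 23.9, 28.5 and 24.5 CPM after CitH3+dsDNA. In controls it was at 27.8, 27.8 and 23.98 CPM. High and low libraries occurred in both groups, and CitH3+dsDNA replicate 2 was the highest of all. The change was -3.40%, with an interval from -15.0% to 9.75% (adjusted p = 0.843 from edgeR). On the log2 scale this was -0.050, and with one library omitted at a time it ran from -0.13, without CitH3+dsDNA replicate 2, to -0.0047, without CitH3+dsDNA replicate 1. Hes1 is the gene with 2 TGGGAA matches in the stretch printed above, and its interval was about as wide as that of Notch3.

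Hey2, a Hey repressor of the arterial lineage, was at 2.70, 3.06 and 2.48 CPM after CitH3+dsDNA and at 3.25, 1.94 and 2.101 CPM in controls. Control replicate 1 was above and the other controls below every stimulated library. The log2 fold change was 0.18, with an interval from -0.34 to 0.70 (adjusted p = 0.795 from edgeR). With one library omitted at a time it ran from 0.040, without control replicate 2, to 0.44, without control replicate 1, and was not called.

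Heyl, which lies downstream of Notch3 in mural cells, was at 1.21, 1.08 and 0.771 CPM after CitH3+dsDNA and at 1.23, 1.13 and 0.916 CPM in controls. The groups were interleaved throughout. Its log2 fold change was -0.10, with an interval from -0.74 to 0.55 (adjusted p = 0.921 from edgeR). With 14 to 22 counts in a library, Heyl had the widest interval of the tested Notch genes, and its sign turned without CitH3+dsDNA replicate 3, to 0.068.

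Hey1, the Hey repressor best known from endothelium, had 0, 2 and 0 counts after CitH3+dsDNA and 0, 3 and 1 counts in controls. It was not tested. Both groups had libraries at 0. The summed counts of 2 and 4 gave a ratio of 0.510 with a counting interval from 0.0461 to 3.56, and no change was detectable at this depth.

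The rest of the pathway, read from lists of ligands, enzymes, cofactors and targets, held 1 call. Of 71 further pathway genes, 62 were tested, 1 was higher after CitH3+dsDNA and 0 were lower at an adjusted p under 0.05 in edgeR. That is 1.61%, near the 2.20% of all tested genes. Their median log2 fold change was 0.012. Among them 14 of the 62 had groups that did not overlap, where 19.1% of all tested genes did.

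The called gene was Kdm5a, a histone H3 lysine 4 demethylase that is known to act with Rbpj as a corepressor. It was at 62.9, 57.5 and 60.4 CPM after CitH3+dsDNA and at 45.3, 52.4 and 49.1 CPM in controls. Every stimulated library lay above every control. On the log2 scale the rise was 0.30 with a standard error of 0.058 (adjusted p = 0.0143 from edgeR). The call was lost in 4 of the 15 alternative settings. The adjusted p from edgeR was 0.107 without CitH3+dsDNA replicate 1, 0.0716 without CitH3+dsDNA replicate 3, 0.0685 without control replicate 1 and 0.0574 with the replicate number as a block, in a range of 0.00192 to 0.107 over all settings. The log2 fold changes in these 4 fits were 0.27, 0.30, 0.25 and 0.30, in the same order.

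**Figure D3:**
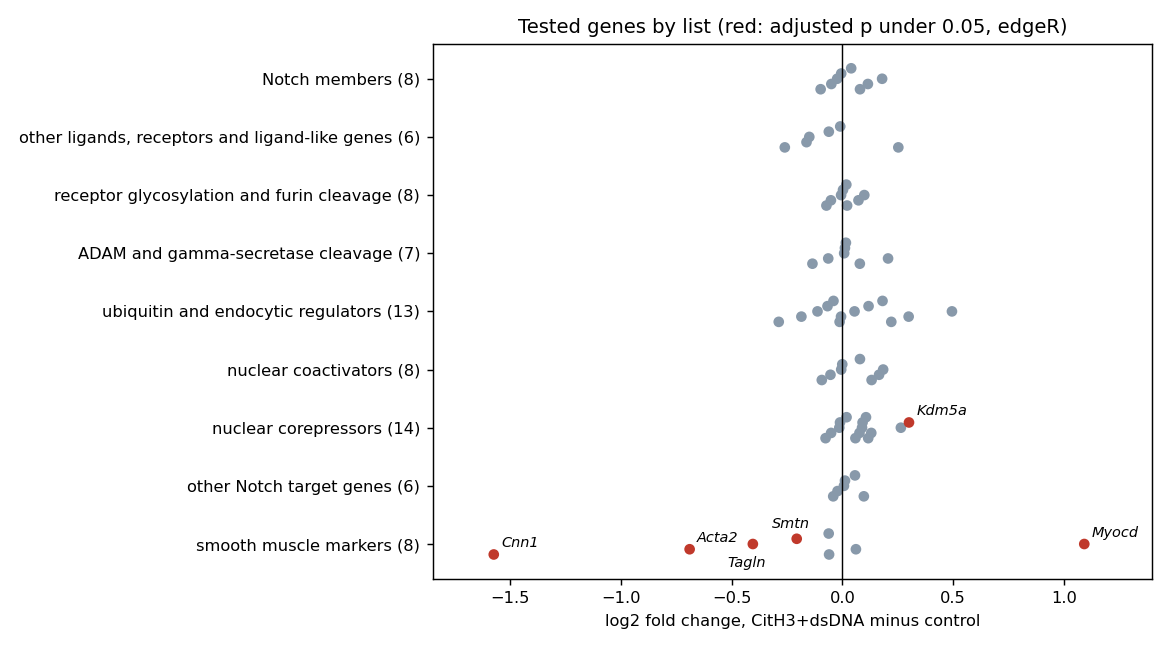
Log2 fold change, CitH3+dsDNA minus control, of every tested gene in the Notch lists and in the smooth muscle marker list, with the number tested in brackets and genes called by edgeR in red and named. Kdm5a at 0.30 is the called gene of the Notch lists, while Cnn1 at -1.57 and Myocd at 1.09 mark the ends of the smooth muscle list.

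The other 13 of the 14 corepressor genes tested were not called. Of the 14, 10 had log2 fold changes above and 4 below 0, with a median of 0.083. Groups did not overlap in 4 of them, against 19.1% of all tested genes. Tle4 had the largest log2 fold change of those not called, 0.26, with adjusted p = 0.212 from edgeR. Ctbp1, which encodes a corepressor, had a log2 fold change of -0.076, and Tle3, of the Groucho family, one of 0.077. Coactivators were not called in any of 8 cases. Ep300, the acetyltransferase that Mastermind brings in, was at 102 ± 6.78 CPM (SD, n = 3) against 90.8 ± 5.13 CPM (SD, n = 3). Its log2 difference was 0.17, with adjusted p = 0.195 from edgeR. Kat2a was at -0.0054 and Snw1 at -0.054 on the same log2 scale.

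Receptor processing genes were likewise not called. Of the ADAM and gamma-secretase genes 7 were tested. Their log2 fold changes ran from -0.14 to 0.21. Groups did not overlap in 3 of the 7, which went in both directions, where 19.1% of all tested genes did not overlap. Adam10, a protease that cuts the ligand-bound receptor, was at the upper end with 54.7 ± 2.49 against 47.4 ± 2.78 CPM (SD, n = 3) and adjusted p = 0.0903 from edgeR. The gamma-secretase subunits Ncstn and Aph1a had log2 fold changes of 0.016 and 0.0080. Among the 8 tested genes of receptor glycosylation and furin cleavage, Furin was at -0.052, Poglut1 at 0.018 and Xxylt1 at 0.0027, again as log2 fold changes. Of 13 tested ubiquitin and endocytic regulators, the ubiquitin ligase Itch had the smallest p, at 64.4 ± 2.97 against 56.8 ± 1.72 CPM (SD, n = 3) with adjusted p = 0.0819 from edgeR. Nedd4, a related ligase, was at 1141 ± 29.5 against 1051 ± 27.8 CPM (SD, n = 3) with adjusted p = 0.103 from edgeR. Dtx3 was at -0.0062 and Numbl, a relative of the Notch inhibitor Numb, at -0.013 on the log2 scale.

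Other ligands and receptors, 6 of 8 tested, gave no call. Notch4, the endothelial receptor, had 30, 37 and 35 counts after CitH3+dsDNA and 56, 36 and 24 counts in controls. Control libraries lay above and below the stimulated ones. Dll3, a Delta-like protein that does not activate Notch in trans, had a log2 difference of -0.26, with adjusted p = 0.451 from edgeR, and Egfl7 one of -0.061.

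Further target genes were not called in any of 6 cases. Pdgfrb, the PDGF receptor that Notch3 is known to raise in smooth muscle, was at 357 ± 10.8 against 363 ± 14.1 CPM (SD, n = 3). Its log2 difference was -0.022, with adjusted p = 0.848 from edgeR. Ccnd1, which encodes cyclin D1, was at 0.0069 and Myc at 0.057 on the log2 scale. The groups of all 6 overlapped.

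Likeness to Notch3 and to Rbpj was ranked by Pearson's r of log2 CPM over the 6 libraries, which include both groups. Nckipsd, Cnot4 and Phkb were nearest to Notch3, with r of 0.994, 0.984 and 0.982. Trio, Ncor1 and Glce were nearest to Rbpj, with r of 0.997, 0.996 and 0.991. Of the 12591 tested genes, the Notch genes left out, 116 had an r above 0.9 with Notch3 and 318 with Rbpj. With only 6 points, how often such values arise without any link between genes was not tested. Ncor1 encodes the nuclear corepressor 1, a member of the corepressor list, and had a log2 difference of 0.13, with adjusted p = 0.222 from edgeR.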

How the data were processed

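Stranded mRNA libraries of RASMCs were sequenced in 6 libraries, 3 a group, assigned by their titles. The authors mapped reads to Rnor6.0 with TopHat2 2.1.1, tallied them by gene with HTSeq, and deposited the raw counts without normalization. The strand setting of the counting is not given in the sources used here, so overlapping, antisense and near-identical genes may share reads. The submitters' processing notes also list Cufflinks 2.2.1 and Cuffdiff.

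Genes were filtered with filterByExpr (minimum count 10), scaled by TMM and tested over the whole table with edgeR 4.0.16 in R 4.3.3, quasi-likelihood, two-sided, with Benjamini-Hochberg adjustment over 12591 genes and calls at an adjusted p under 0.05. Standard errors and 95% intervals were derived from the coefficient without shrinkage and its F statistic. Alternatives were 3 scalings, DESeq2 1.42.0, limma-voom (limma 3.58.1), robust dispersions, 2 filters, a replicate block, and omission of each library in turn. The fits were tested on simulated data with changes larger than any seen in the Notch genes. That test does not show how often changes as small as those seen here would be found.

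The Notch genes and lists were chosen with earlier results of these data known. Named were the 10 genes, every called gene of the pathway and marker lists, the 3 most counted genes of each pathway list, and the 3 nearest to Notch3 and to the Notch gene of smallest p. Ncor1, Itch, Adam10, Tle4, Csf1r, Cd14, Aif1, Mfap5, Serpinf1, Dcn, Pdgfra, Dpt, Myh11, Lmod1 and Des were named after their values were seen. So were the endothelial markers and markers near 0, and the low-count genes of the closing observations. Averaged over genes, replicate pairs all differed by more than counting error, with a chi-square per gene of at least 3.38. Single genes can lie below it, as Notch3 did in controls. Some genes of the pathway lists that the rule names are not reported here. Gene lengths were not used, so levels are not compared between genes.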

Additional observations from a re-analysis of the deposited data

How the results depend on the processing

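No Notch gene was called under any of the 15 alternatives, and none of their 120 log2 fold changes under alternatives had an adjusted p under 0.05 in edgeR, DESeq2 or limma-voom. Of these values 4 changed sign, all close to zero: Notch2 was at 0.014 with library size alone, and with one library omitted at a time Notch1 ran from -0.082 to 0.017, Notch2 from -0.048 to 0.052 and Heyl from -0.24 to 0.068. Those shifts came without CitH3+dsDNA replicate 2 for Notch1 and Notch2 and without CitH3+dsDNA replicate 3 for Heyl. The number of other pathway genes called, 1, was 2 with library size alone (Itch added), 2 with DESeq2 (Nedd4 added), 3 with robust dispersion estimates (Adam10 and Itch added) and from 0 to 2 when single libraries were omitted (Adam10 added without control replicate 3); the cause was not tested. The count of all genes called, 277, was between 164, without CitH3+dsDNA replicate 1, and 357 when single libraries were omitted, and it was 184 without control replicate 1. With a replicate block 212 genes were called in all, 0 of the 10 Notch genes and 0 other pathway genes, with Kdm5a at an adjusted p of 0.0574 from edgeR. No pairing of libraries by their shared numbers was seen: deviations from the group means correlated across genes at -0.0458, 0.00452 and 0.0355. Counting error lowers such correlations, so they cannot exclude a weak pairing. Depth limits Jag2 and Hey1, which had at most 7 and 3 counts in any library, and Heyl and Hey2, whose intervals are wide.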

Other observations

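Several pathway genes under the filter on low counts were read only as counts, without a test, and are named because of their values. Hes5, a Notch target better known from neural cells, had 4, 5 and 4 counts after CitH3+dsDNA and 1, 2 and 1 counts in controls. Every stimulated library was above every control. The summed counts were 13 and 4, a ratio of 3.31 with a counting interval from 1.02 to 14.0. Dll4, the Delta ligand of arterial endothelium, had 9, 13 and 8 counts against 5, 3 and 8 counts, a ratio of 1.91 with an interval from 1.01 to 3.75. Hes2 went the other way, with 0, 1 and 0 counts against 1, 1 and 6 counts. Its ratio was 0.127 with an interval from 0.00287 to 0.951, and control replicate 3 held most of its reads. These intervals cover counting error only and are not adjusted for the 9 genes so read.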
